A study of Mus musculus with 8 samples.

Results

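The epithelial cells of tongues in which active YAP alone had been switched on (Y) were compared with those of control tongues (N). The cells were chosen by rule from 4 single-cell libraries, 2 per group. A cell was kept with 1000 to 5500 genes, at most 30000 transcripts counted by unique molecular identifiers (UMIs), at most 7% mitochondrial UMIs, no UMI of the leukocyte gene Ptprc, and the keratins Krt5, Krt14, Krt15, Krt13 and Krt6a together at 0.5% of UMIs or more. This gave 2290 Y cells and 3862 N cells, 6152 of the 22468 cells deposited for these libraries and of 42550 in the series. The UMIs of each library's cells were summed, so that a library, not a cell, was a replicate.

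Both groups carried Krt14-CreERT and LSL-rtTA, in which tamoxifen injected into the tongue activates Cre in cells using the Krt14 promoter and thereby permits doxycycline-dependent transcription, and, per the study's methods, a tetON_H2B-GFP reporter. Y mice also carried tetON_YAP1S127A, a YAP1 with the S127A change that keeps it active, and N mice carried no oncogenic transgene. Viable cells were sorted from tongue epithelia 15 days after induction from sex-balanced adult littermates. Because the Krt14 promoter is used by basal cells, the transgene starts there and is carried upward by their progeny, and cells that escaped recombination remain in the same tissue. Groups with the viral oncogenes E6-E7 alone (E, with tetON_E6-E7) or with both transgenes (EY) served here to share the estimate of spread and as a second pair that differs by the YAP transgene.

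YAP is the transcriptional coactivator at the end of the Hippo pathway. The kinases LATS1 and LATS2 phosphorylate it and hold it in the cytoplasm. A YAP that cannot be phosphorylated at that serine enters the nucleus, binds TEAD factors and turns on genes of growth, cell shape and matrix, among them genes such as Amotl2 and Lats2 that restrain YAP in turn. The dorsal tongue is a stratified squamous epithelium in which basal cells marked by Krt5 and Krt14 divide, and suprabasal cells marked by Krt13 and Krt4 differentiate, build a cornified envelope and are shed.

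The libraries were uneven. N1 gave 3447 cells and N2 415, while Y1 gave 1289 and Y2 1001, with summed UMIs from 8746483 (N2) to 49827744 (N1) and medians of 13656 (N1) to 22942 (N2) UMIs per cell. The upper limits on genes and UMIs removed 74 cells of N1 but 326 of N2, 608 of Y1 and 587 of Y2. N2 may pool animals, since several animal numbers stand in its title. The 12 epithelial markers summed to 25981 to 30054 CPM in the 4 libraries, the usual scaling of UMI counts to the same total in each library. None of the 12 passed the test between the groups. They include the keratins of the rule, so their sum was set in part by the choice of cells and does not test the label epithelial. Markers of other cells were low but not even. Summed neutrophil markers came to 4.96 CPM in N1, 23.5 in N2, 133 in Y1 and 42.2 in Y2, with 4 of 10 higher in both Y libraries than in both N libraries. Macrophage markers were at 19.1 and 14.1 CPM in N and 40.6 and 25.6 in Y, with 9 of 12 higher in both Y libraries. T cell markers came to 7.57 CPM in N1, 8.7 in N2, 24 in Y1 and 6.04 in Y2. The part of these cells' RNA in the results was not tested. Gland and duct markers were highest in N2, at 1482 CPM against 293 to 430 in the others, and 5 of 13 were lower in both Y libraries. Over the 13555 genes tested below, 3269 were higher in both Y libraries than in both N libraries and 3390 were lower in both. No more than 1 barcode among the kept cells was shared between any 2 of these libraries.

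Yap1 was the check of the genotype. Yap1 (ENSMUSG00000053110, chromosome 9 of GRCm38) stood at 34.5 CPM in N1 and 41.7 in N2, and at 215 in Y1 and 447 in Y2. Both Y libraries lay above both N libraries, with a log2 fold change of 3.12 (SE 0.37, edgeR quasi-likelihood test, Benjamini-Hochberg adjusted p 0.037). The files hold no separate feature for the transgene. The study labels its transgene-specific primers as human YAP1 (hsaYAP1) and counted the transgene in a separate alignment. A Yap1 UMI here is one assigned to the mouse gene and is not a count of the transgene. The share of the transgene in the Yap1 UMIs was not analysed. A Yap1 UMI was found in more Y than N cells at equal depth. After each cell was thinned to 5000 UMIs, 57.7% of Y1 cells (exact Clopper-Pearson 95% interval 54.9 to 60.5%) and 73.5% of Y2 cells (70.6 to 76.2%) had a Yap1 UMI, against 16.3% in N1 (15 to 17.6%) and 19.2% in N2 (15.3 to 23.5%). The thinning left out 28 to 40 shallower cells per library, and the unthinned shares were 38.1 and 55.4% in N1 and N2 and 84.3 and 87.7% in Y1 and Y2. Leukocytes of the same libraries, which should hold little, had a Yap1 UMI in 0.683 and 0.822% of cells in N and 4.17 and 3.87% in Y, at medians of 3372 to 7326 UMIs. The intervals cover counting error only, and a cell without a Yap1 UMI may still express the gene.

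Of 13555 genes tested, 52 were higher and 10 lower in Y at an adjusted p under 0.05, and these 62 are termed called. That is 0.384% and 0.0738% of genes. Unadjusted p-values under 0.05 covered 7.07% of genes on the higher side and 5.09% on the lower side, and the median log2 fold change of all genes was -0.0007. The count of called genes was fragile. It was 0 in a fit of the 4 libraries alone, 0 without N1, 0 without N2, 1 without Y2 and 98 without Y1, and it was 457 with DESeq2, 1208 with no filter on low counts and 1504 without the upper limits on genes and UMIs. Left out of the model, the E and EY libraries also changed it through the shared spread, to 0 without E1, 0 without E2, 15 without EY1 and 52 without EY2. For all 62 genes the Y libraries did not overlap the N libraries, so that their direction, kept in every setting tried, was largely set by their choice. Such separation was common, with 3269 of the 13555 genes higher and 3390 lower in both Y libraries than in both N libraries. With 2 libraries per group, p-values rest on a spread shared by all 8 libraries, and nothing in the labels says which libraries were made together.

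**Figure D1:**
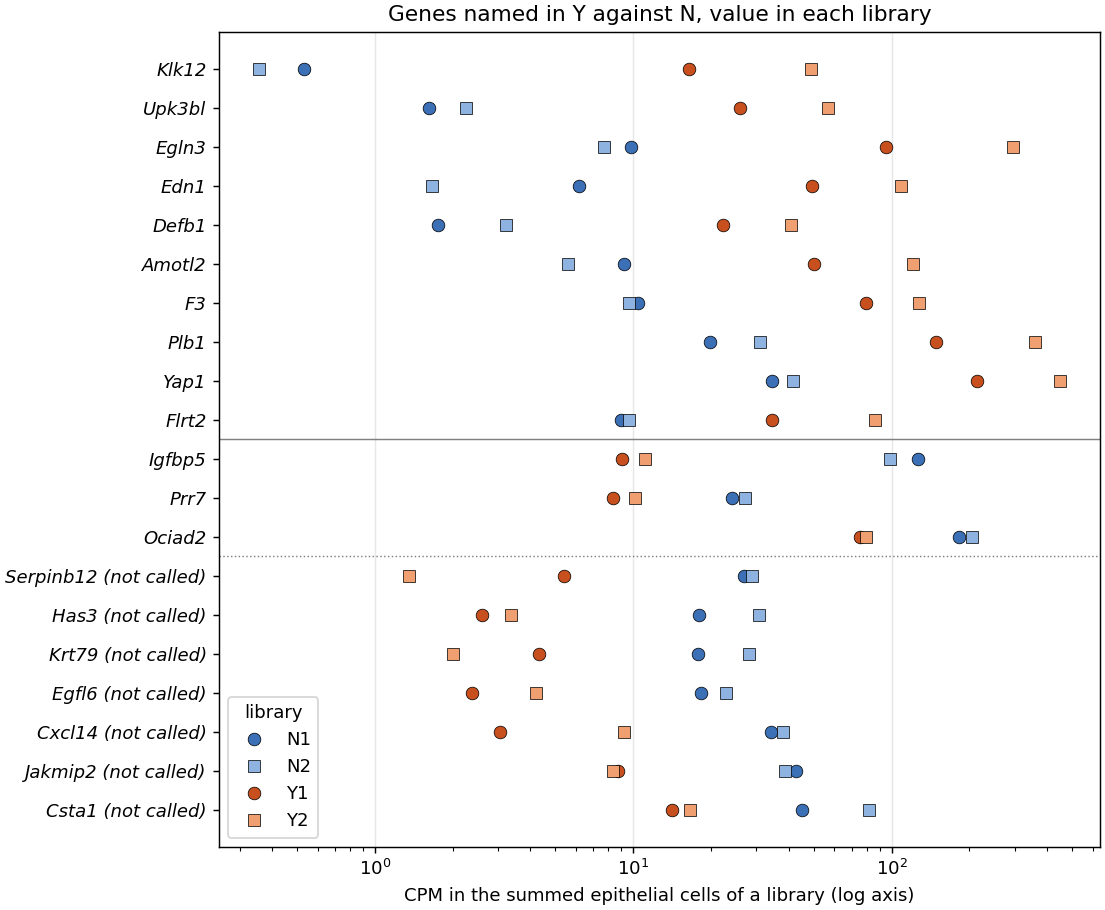
Level of the genes named by rule in each library, in CPM on a log axis, with N in blue and Y in orange (circles replicate 1, squares replicate 2). The solid line separates rises from falls and the dotted line called falls from falls that missed the threshold. In each row both Y libraries sit on the same side of both N libraries, as the naming rule required.

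Some regulators of YAP itself rose. Amotl2, an angiomotin family protein that tethers YAP at junctions, had 9.22 and 5.6 CPM in N1 and N2 and 50.1 and 121 in Y1 and Y2 (log2 fold change 3.48, SE 0.44, adjusted p 0.037). Lats2, the kinase that phosphorylates YAP, went from 6.99 and 6.43 CPM to 16.7 and 23.6 (1.58, SE 0.22, adjusted p 0.038). Vgll3, a cofactor that binds TEAD factors, was nearly silent in N, at 0.178 and 0.477 CPM, and was at 5.09 and 13.3 in Y (5.19, SE 0.70). Wwc2, a WW-domain scaffold related to the Hippo activator KIBRA, rose from 23.5 and 20.3 to 65.3 and 72.3 CPM (1.65, SE 0.18). In all 4 genes the lower Y library was well above the higher N library. Of the 25 measured members of a list of Hippo components and TEAD factors, 4 were called higher (Yap1, Lats2, Amotl2 and Vgll3) and none lower. At an unadjusted p under 0.05, 9 were higher and 1 lower. Both counts of higher genes include Yap1, already used as the check of the genotype. Over all genes 0.384% were called higher, and 7.07% were higher and 5.09% lower at the unadjusted level. In both Y libraries 11 members lay above and 5 below both N libraries. The list's median was 0.20 on the log2 scale. Ajuba, a LIM protein that inhibits LATS kinases, was at 40 and 54.1 CPM in N and 80.4 and 78.8 in Y and missed the threshold (0.76, SE 0.19, adjusted p 0.155).

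Of the classical targets of YAP and TEAD few passed the test. Of 21 measured members 4 were called higher (Amotl2, Lats2, Axl and F3) and none lower, 9 were higher at an unadjusted p under 0.05, and the median was 0.88. The background was 0.384% called higher and 7.07% higher at the unadjusted level. F3, which encodes tissue factor, the cell-surface initiator of clotting, was at 10.4 and 9.65 CPM in N and 79.8 and 128 in Y (3.36, SE 0.44, adjusted p 0.038). Axl, a receptor tyrosine kinase for Gas6, rose from 6.6 and 6.43 to 19.8 and 27 CPM (1.84, SE 0.24). The most cited targets behaved otherwise. Ccn1, a secreted matricellular protein, was at 111 and 61.2 CPM in N and 231 and 195 in Y, apart in every library but short of the threshold (1.30, SE 0.32, adjusted p 0.144). Ccn2 was at 2.98 and 8.7 CPM in N and 8.01 and 14.7 in Y, so that its libraries overlapped (1.03, SE 0.65, adjusted p 0.589), and Ankrd1 had too few UMIs to be tested. Ccn2 and Ankrd1 were chosen for mention after their values were seen. Igfbp3 overlapped as well, at 64.6 and 107 against 104 and 141 CPM (adjusted p 0.829).

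TEAD factors bind a short element whose core reads GGAATG, or CATTCC on the other strand. RefSeq start sites of GRCm38.p6 were found by symbol for 45 of the 62 called genes, and the 250 bases before each start were searched on both strands. The core was present for 15 of the 45 (33.3%), against 14.4% of 27025 genes with a window of the same length. Those 27025 genes were not limited to the genes tested here. Its longer form ACATTCC was present for 17.8% against 3.75%, and every window with the longer form also holds the core. The AP-1 element TGANTCA was present for 11.1% against 7.82%. Yap1, used above as the check of the genotype, is among the called genes with the core and with its longer form. These are shares of letters in a window and were not tested. Lats2, which also rose, held no core in either of its 2 windows. The windows below were chosen because they hold a core, and belong to 3 Hippo pathway genes that rose, to the vasoconstrictor peptide gene Edn1, which also rose, and to Igfbp5, which fell, each written toward the start site with the core in capitals.
Amotl2 (chr9:102717554-102717803, plus strand): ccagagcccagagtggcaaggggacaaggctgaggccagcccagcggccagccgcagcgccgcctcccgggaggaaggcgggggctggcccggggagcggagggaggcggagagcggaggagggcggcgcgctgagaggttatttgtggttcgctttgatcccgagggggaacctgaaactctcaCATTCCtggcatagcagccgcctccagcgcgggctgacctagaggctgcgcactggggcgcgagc
Vgll3 (chr16:65814939-65815188, plus strand): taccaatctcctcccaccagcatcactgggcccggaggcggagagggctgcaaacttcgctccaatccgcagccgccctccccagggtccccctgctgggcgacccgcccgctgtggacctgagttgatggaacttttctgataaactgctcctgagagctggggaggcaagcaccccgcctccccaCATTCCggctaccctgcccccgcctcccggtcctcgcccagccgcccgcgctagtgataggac
Wwc2 (chr8:47990545-47990794, minus strand): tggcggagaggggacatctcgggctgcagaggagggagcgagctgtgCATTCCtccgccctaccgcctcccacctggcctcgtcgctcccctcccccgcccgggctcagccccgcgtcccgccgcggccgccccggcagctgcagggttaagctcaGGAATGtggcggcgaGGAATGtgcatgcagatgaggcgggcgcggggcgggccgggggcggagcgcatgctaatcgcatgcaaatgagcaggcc
Edn1 (chr13:42301226-42301475, plus strand): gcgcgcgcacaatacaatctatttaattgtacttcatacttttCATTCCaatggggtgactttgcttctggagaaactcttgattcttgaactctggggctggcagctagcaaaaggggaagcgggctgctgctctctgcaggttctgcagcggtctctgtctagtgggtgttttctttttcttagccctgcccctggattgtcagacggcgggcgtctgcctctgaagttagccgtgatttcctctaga
Igfbp5 (chr1:72874866-72875115, minus strand): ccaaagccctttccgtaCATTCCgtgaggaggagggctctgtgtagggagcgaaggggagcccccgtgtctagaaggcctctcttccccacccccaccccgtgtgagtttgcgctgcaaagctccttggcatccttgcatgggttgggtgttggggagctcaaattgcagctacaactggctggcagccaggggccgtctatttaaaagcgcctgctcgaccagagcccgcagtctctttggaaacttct
Amotl2 and Vgll3 held 1 core each, 65 and 63 bases before the start, and Wwc2 held 3. Edn1 held 1 core 207 bases and Igfbp5 1 core 233 bases before the start. A core was thus found before genes that moved in either direction.

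The largest rises among genes of at least 20 CPM were these. Klk12, a kallikrein-related peptidase, had 0.533 and 0.357 CPM in N1 and N2 and 16.5 and 48.9 in Y1 and Y2 (6.04, SE 0.90, adjusted p 0.0467). Upk3bl, an uroplakin-like membrane protein, went from 1.62 and 2.26 to 25.8 and 56.5 CPM (4.48, SE 0.45). Egln3, a prolyl hydroxylase that marks HIF for destruction and is itself induced by low oxygen, was at 9.78 and 7.74 CPM in N and 95.5 and 296 in Y (4.46, SE 0.52). Y2 exceeded Y1 in all of the 10 named rises. Edn1, endothelin 1, rose from 6.18 and 1.67 to 49 and 109 CPM (4.17, SE 0.62, adjusted p 0.0468). Defb1, an epithelial defensin, rose from 1.76 and 3.22 to 22.2 and 40.9 CPM (3.80, SE 0.53). Plb1, a brush border type phospholipase, was the most abundant of these apart from Yap1, at 19.8 and 30.9 CPM in N and 148 and 360 in Y (3.34, SE 0.46). Flrt2, a leucine-rich adhesion and guidance protein, rose from 8.95 and 9.65 to 34.3 and 85.9 CPM (2.70, SE 0.40, adjusted p 0.0457). The naming rule required the Y libraries to lie apart from the N libraries in each of these 10 rises.

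Other called rises included secreted, matrix and actin-binding proteins, named here and below after their values were seen where they are on no list. Secreted factors and matrix proteins included Wnt4, at 261 and 324 CPM in N and 595 and 713 in Y (1.16, SE 0.16), the serine protease Htra1, at 49.9 and 67.1 against 161 and 207 CPM (1.66, SE 0.19), the fibulin Efemp1, the activin antagonist Fstl3 and the matricellular Tinagl1, at 14.6 and 21 against 66.8 and 117 CPM (2.39, SE 0.32). Proteins of the actin cytoskeleton included Cnn3, Pdlim2, Phactr4, Afap1l1 and Specc1, with log2 fold changes from 1.70 (Specc1) to 3.27 (Afap1l1). Cnn3, an actin-binding calponin, was at 4.58 and 7.98 CPM in N and 33.7 and 40.1 in Y. Igf2bp1, an RNA-binding protein best known from fetal tissue, was at 0.0593 and 0.596 CPM in N and 12.2 and 12.8 in Y (6.23, SE 0.72). Of the 62 called genes, 7 were over 5 times higher in leukocytes of these libraries than in the epithelial cells, namely Slc15a3, Cxcl16, Slfn2, Pfkfb3, Fkbp5, Cotl1 and Ckb. Macrophage and neutrophil markers were also higher in Y, and the part of leukocyte RNA in these 7 was not tested. Among cells without a UMI of the leukocyte genes Laptm5, Cd52 and Tyrobp, 61 genes were called, 49 of the 62 among them, and all 62 kept their direction.

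Among called falls of at least 20 CPM the largest was that of Igfbp5, an insulin-like growth factor binding protein. It was at 127 and 98.8 CPM in N and 9.07 and 11.1 in Y (-3.49, SE 0.39, adjusted p 0.037). Ociad2 fell from 182 and 205 to 75.8 and 79.6 CPM (-1.32, SE 0.17) and Prr7 from 24.2 and 27 to 8.35 and 10.2 (-1.47, SE 0.18). Krt76, a keratin of differentiated oral epithelium, was at 14.9 and 16.3 CPM in N and 0.0424 and 0.402 in Y (-6.17, SE 0.66). The other called falls were Heg1, Spon2, Pla2g4f, Stfa3, Cotl1 and Ckb, with log2 fold changes from -1.40 (Cotl1) to -2.73 (Stfa3, a stefin with near-identical copies, so its UMIs may be split among them). Of the 10 called falls 3 (Igfbp5, Ociad2 and Prr7) met the limits on level and leukocytes for named genes, and the 7 added at an unadjusted p under 0.01 did not pass the threshold. They were Has3, which makes hyaluronan, at 17.9 and 30.7 CPM in N and 2.59 and 3.37 in Y (-3.02, SE 0.49, adjusted p 0.0601), Jakmip2, at 42.7 and 38.6 against 8.73 and 8.35 CPM (-2.25, SE 0.36, adjusted p 0.0597), the chemokine Cxcl14, at 34 and 37.9 against 3.05 and 9.2 CPM (-2.56, SE 0.55, adjusted p 0.107), and Serpinb12, Krt79, Egfl6 and Csta1, with log2 differences from -2.04 to -3.03 and adjusted p from 0.107 to 0.204. For these 7 too, both Y libraries lay below both N libraries because the naming rule required it.

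The list of cornified envelope genes held 39 measured genes, of which 3 were called higher (Sprr2d, Sprr2j-ps and Sprr3) and none lower, 23 were higher at an unadjusted p under 0.05 where the background was 7.07%, and the median was 1.82. Small proline-rich proteins are cross-linked into the envelope. Sprr2d had 2 UMIs in N1 and none in N2 and 485 in the Y libraries together, a ratio of 325 (exact 95% interval 89.4 to 2689, counting error only). Sprr2j-ps had 2 UMIs in N against 137 in Y, a ratio of 91.7 (24.9 to 765). The Sprr2 genes are near-identical copies, so the split among them is uncertain. Sprr3 was at 0.178 and 0 CPM in N and 6.87 and 20.8 in Y (6.54, SE 0.83). Crct1, a cysteine-rich gene of the same chromosomal cluster, was at 1.01 and 8.34 CPM in N and reached 267 and 1060 in Y, but its replicates differed too much for the threshold (7.42, SE 1.72, adjusted p 0.129). Kallikreins are peptidases that free corneocytes, and Spink5 inhibits them. Klk12 was the 1 of 9 measured kallikrein and Spink genes that was called, 7 of 9 were higher at an unadjusted p under 0.05, and the median was 1.53. Klk10 was at 67.6 and 95.7 CPM in N and 178 and 293 in Y (1.53, SE 0.36, adjusted p 0.132) and Spink5 at 85.4 and 54.3 against 163 and 494 (2.23, SE 0.47, adjusted p 0.107).

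**Figure D2:**
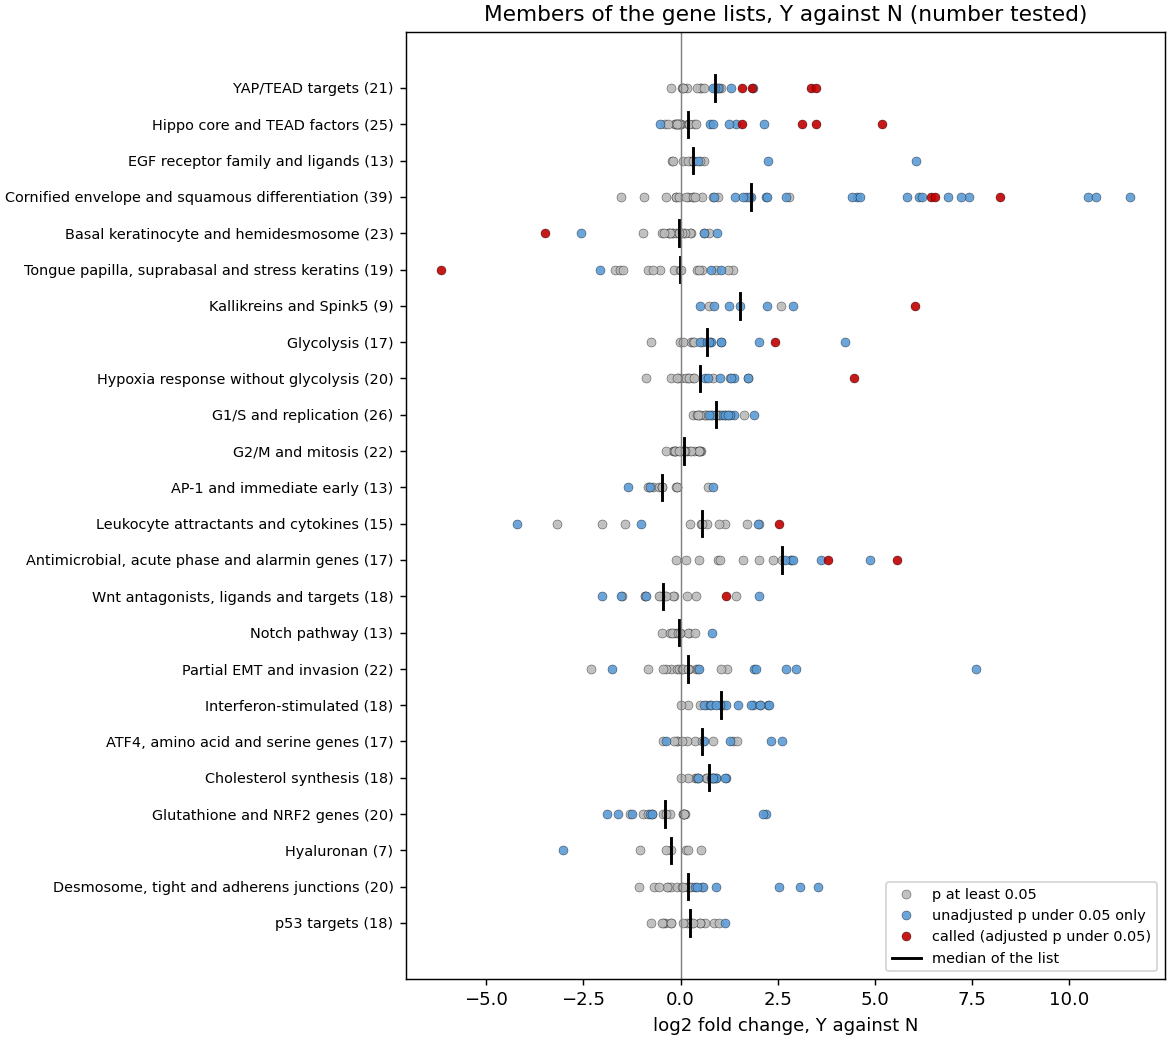
Log2 fold change of Y against N for each measured member of 24 gene lists, with called genes in red, genes at an unadjusted p under 0.05 in blue, the rest in grey and the list's median as a bar. Cornified envelope genes reach furthest to the right with a median of 1.82, and G2/M genes lie around 0 with a median of 0.09.

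Few defence genes passed the test. For the counts below, the background at an unadjusted p under 0.05 was 7.07% of all genes higher and 5.09% lower. Of 17 measured antimicrobial, acute phase and alarmin genes 2 were called higher (Orm1 and Defb1), 7 were higher at an unadjusted p under 0.05 and none was lower, and the median was 2.60. Orm1, an acute phase protein, was at 0.296 and 0.596 CPM in N and 14.8 and 19.9 in Y (5.56, SE 0.57, adjusted p 0.037). Slpi, an antiprotease of mucosal surfaces, was at 5.55 and 1.91 CPM in N and 92.6 and 150 in Y and just missed the threshold (4.88, SE 0.81, adjusted p 0.0601). Tslp, a cytokine by which epithelia address dendritic cells, was at 3.32 and 5.12 against 23 and 35.3 CPM (2.84, SE 0.44, adjusted p 0.0517). S100a8, at 1.82 and 11 CPM in N and 65.3 and 18.8 in Y, and S100a9 were 129 and 110 times higher in leukocytes than in these cells. Both are themselves members of the neutrophil marker list, so its similar order of libraries is not a separate observation. Of 15 attractants and cytokines Cxcl16 alone was called, at 12.6 and 14.5 CPM in N and 58.1 and 96.6 in Y (2.52, SE 0.31), and it is among the genes higher in leukocytes. Cxcl5, a neutrophil attractant, pointed the other way at 13.4 and 81.8 CPM in N and 4.87 and 0.101 in Y (-4.20, SE 1.36, adjusted p 0.267). Wfdc5, a whey acidic protein inhibitor, and Il22ra2, a soluble decoy receptor for IL-22, were also called higher, at log2 fold changes of 5.22 and 5.29. Ly6m and the small heat shock gene Hspb2 were called on 3 and 1 UMIs in N, with ratios of 21.4 (6.91 to 108) and 222 (39.3 to 8832).

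Among genes of energy use and growth 2 were called, Pfkfb3 and Egln3. At an unadjusted p under 0.05 the background was 7.07% of all genes higher and 5.09% lower. Of 17 glycolysis genes 1 was called higher (Pfkfb3, which makes the allosteric activator of glycolysis), 10 were higher and none lower at an unadjusted p under 0.05, and the median was 0.67. Gapdh was at 1048 and 893 CPM in N and 1214 and 1511 in Y (0.49, SE 0.19, adjusted p 0.363), Ldha at 468 and 472 against 598 and 983 (0.75, SE 0.29, adjusted p 0.363) and Tpi1 at 234 and 215 against 350 and 567 (1.03, SE 0.27, adjusted p 0.172). Of 20 hypoxia genes outside glycolysis Egln3 alone was called and 7 were higher at an unadjusted p under 0.05, among them Ndrg1 at 28.8 and 42.1 against 82 and 101 CPM (1.38, SE 0.25, adjusted p 0.0731). Of 26 genes of G1/S and replication none was called and 8 were higher at an unadjusted p under 0.05, with a median of 0.90. Ccnd1, cyclin D1, was at 204 and 226 CPM in N and 335 and 423 in Y (0.82, SE 0.28, adjusted p 0.3) and the replication helicase Hells at 35.4 and 28.4 against 51.4 and 114 (1.37, SE 0.43, adjusted p 0.257). Of 22 genes of G2/M and mitosis none was called or under an unadjusted p of 0.05, with a median of 0.09. Of 18 cholesterol synthesis genes none was called and 7 were higher at an unadjusted p under 0.05, with a median of 0.74, as with Hmgcs1 at 143 and 116 against 201 and 248 CPM (0.79, SE 0.19, adjusted p 0.133). The amino acid list also had no called gene among 17, with Psat1 of serine synthesis at 81.7 and 61.8 against 149 and 200 CPM (1.28, SE 0.30, adjusted p 0.133).

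Wnt, interferon and redox lists held 1 called gene in all. Beside the unadjusted counts that follow, 7.07% of all genes were higher and 5.09% lower at the same level. Of 18 measured Wnt genes Wnt4 alone was called, 2 were higher and 3 lower at an unadjusted p under 0.05, and the median was -0.44. Wnt7b was at 15.2 and 20.3 CPM in N and 48.4 and 94.1 in Y (2.02, SE 0.39, adjusted p 0.0864). Of 18 interferon-stimulated genes none was called, 12 were higher at an unadjusted p under 0.05 and the median was 1.05. Isg15, a ubiquitin-like modifier, was at 65.5 and 44.4 CPM in N and 130 and 275 in Y (1.87, SE 0.38, adjusted p 0.099), and Bst2, which tethers virions, at 33.6 and 18 against 74.7 and 108 (1.80, SE 0.30, adjusted p 0.0601). Of 20 glutathione and NRF2 genes none was called, 5 were lower and 2 higher at an unadjusted p under 0.05, and the median was -0.41. Gpx2, a glutathione peroxidase, was at 504 and 444 CPM in N and 251 and 60 in Y (-1.61, SE 0.61, adjusted p 0.354). Of 22 genes of partial epithelial-mesenchymal transition none was called, 6 were higher and 1 lower at an unadjusted p under 0.05, and the median was 0.20, with Anxa3 at 12.1 and 26.4 CPM in N and 71.8 and 176 in Y (2.72, SE 0.55, adjusted p 0.099). Of 23 basal keratinocyte and hemidesmosome genes Igfbp5 alone was called, and the median was -0.05. Of 19 papilla, suprabasal and stress keratins Krt76 alone was called, with a median of -0.02, and Krt17, a keratin of stressed epithelium, was at 1269 and 1411 CPM in N and 1993 and 2569 in Y (0.77, SE 0.28, adjusted p 0.337). No member was called among EGF receptor family, immediate early, Notch, hyaluronan, junction or p53 target genes, whose medians ran from -0.49 (immediate early) to 0.33 (EGF receptor family).

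The second pair of groups, EY against E, used 4 other libraries and differed by the same transgene on top of E6-E7. These libraries were uneven too, with 4055 kept cells in E1, 553 in E2, 170 in EY1 and 2027 in EY2. The EY1 values rest on 2454816 summed UMIs, against 37020044 in EY2. Both pairs were tested in 1 model with a shared spread for each gene, so calls in the 2 pairs are not independent. In that pair 7.97% of all genes were called higher and 8.46% lower. Of the 52 genes called higher in Y against N, 47 were called higher there too, and of the 10 called lower, 8 were called lower. In all, 61 of the 62 had the same sign. The 55 genes called the same way in both pairs became 0 if N1, N2, E1 or E2 was dropped, 1 for Y2, 13 for EY1, 5 for EY2 and 81 for Y1. Egln3 was at 6.53 and 5.34 CPM in E1 and E2 and 119 and 108 in EY1 and EY2 (4.24, SE 0.52, adjusted p 0.0113). Igfbp5 was at 127 and 166 CPM in E and 2.44 and 0.454 in EY (-7.75, SE 0.56, adjusted p 0.00902). Both pairs thus showed these genes far apart, and Igfbp5 was lower in each EY library than in either Y library. The 7 genes not called there were Wnt4, Cyp2s1, Ppp1r14a, Efemp1, Cd5, Cotl1 and Ckb. Cyp2s1, a cytochrome of epithelial barriers, was at 7.21 and 7.62 CPM in N, 22.7 and 26 in Y, 8.62 and 9.4 in E and 13.4 and 9.45 in EY. Cd5, at 29.1 and 30.4 CPM in N and 64.3 and 67.4 in Y, was at 29.5 and 29.7 in E and 32.5 and 24.6 in EY, the only gene of the 62 with the opposite sign (-0.08, SE 0.16). In the interaction test, (EY minus E) minus (Y minus N), edgeR called 0 genes and DESeq2 89. Unadjusted edgeR p-values under 0.05 covered 1562 genes, 19 of them among the 62. A difference between the pairs was therefore not established for these 7 genes by edgeR. Interferon-stimulated genes are an example of unequal levels, since Isg15 was at 651 and 451 CPM in E and 479 and 578 in EY, and the list's median for EY against E was -0.63 with 1 of 18 called lower and none higher.

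**Figure D3:**
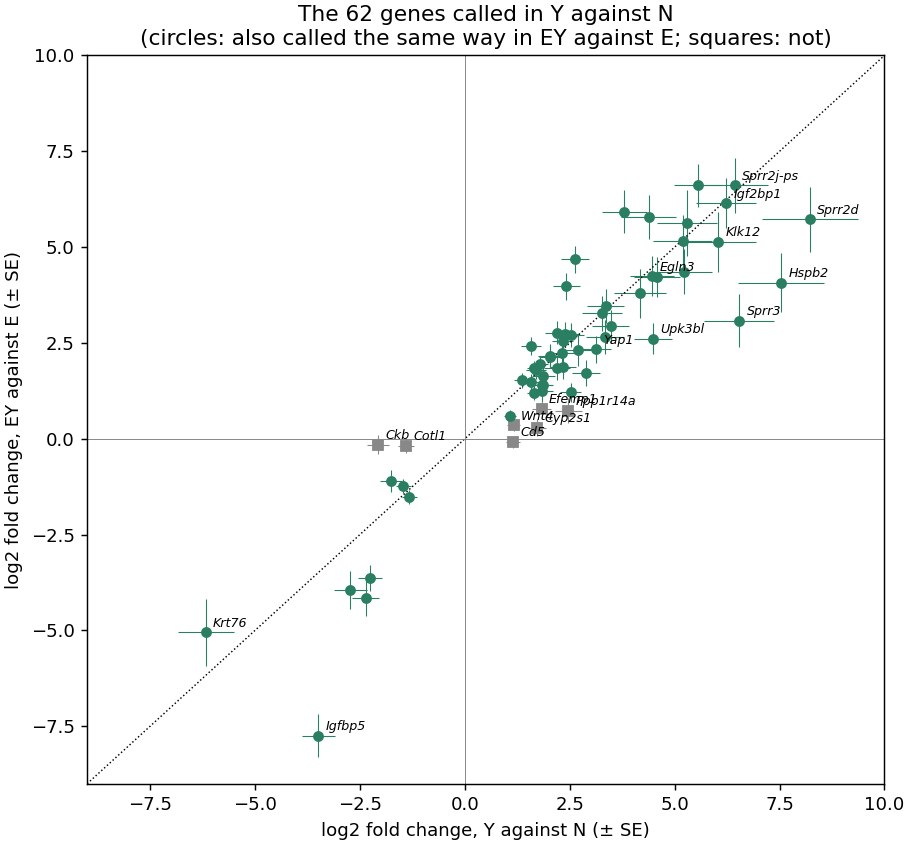
Log2 fold change ± SE of the 62 genes called in Y against N (x axis) and of the same genes in EY against E (y axis), with the dotted line marking equal values. Circles are the 55 genes also called in the same direction in EY against E, and squares the 7 that were not, which lie between -0.18 and 0.78 on the y axis.

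The layers of the epithelium were unequally sampled. Cells with basal keratins and under 0.5% of Krt13 and Krt4 made up 81.1 and 86.5% of kept cells in N1 and N2 and 73.4 and 69.9% in Y1 and Y2, and cells with at least 0.5% of Krt13 and Krt4 made up 18.5 and 12.5% and 25.4 and 28.8%. The comparison was therefore repeated within each layer, which leaves the keratins themselves uninterpretable. In basal keratin cells 0.277% of 12975 genes were called higher and 0.0539% lower, 38 of the 62 genes among them. In the Krt13 or Krt4 cells, a group added after the data were seen, 1.15% of 11304 genes were called higher and 0.469% lower, 46 of the 62 among them. The 43 calls in basal cells became 0 without N1, without N2 or with RLE scaling, 89 without Y1 and 1 without Y2. Yap1 was alike in both, at 212 and 445 CPM in basal cells of Y1 and Y2 and 213 and 480 in Krt13 or Krt4 cells. Egln3 was at 7.32 and 6.36 CPM in basal cells of N and 68.2 and 257 in those of Y (4.53, SE 0.57, adjusted p 0.049), and at 18.5 and 15.8 against 162 and 392 in the upper cells (3.93, SE 0.42, adjusted p 0.0069). Of 35 envelope genes measured in basal cells 1 was called higher, Sprr2d, and 20 were higher at an unadjusted p under 0.05, where 849 of all 12975 genes were. Sprr2d was at 0.0516 and 0 CPM in basal cells of N and 5.17 and 4.53 in those of Y, and at 0 in both N libraries and 16.4 and 36.2 CPM in Y among the upper cells. Slpi, short of the threshold in basal cells, was at 2.68 and 1.27 against 26.7 and 96.1 CPM in basal cells (4.78, SE 0.79, adjusted p 0.0617) and at 16.2 and 7.29 against 259 and 248 in upper cells (4.20, SE 0.59, adjusted p 0.0163). Krt76 was mainly in upper cells, at 61.5 and 160 CPM in N against 0 and 1.22 in Y (-7.54, SE 0.98, adjusted p 0.0155). The difference between layers was not tested. The N2 value for upper cells rests on 52 cells.

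**Figure D4:**
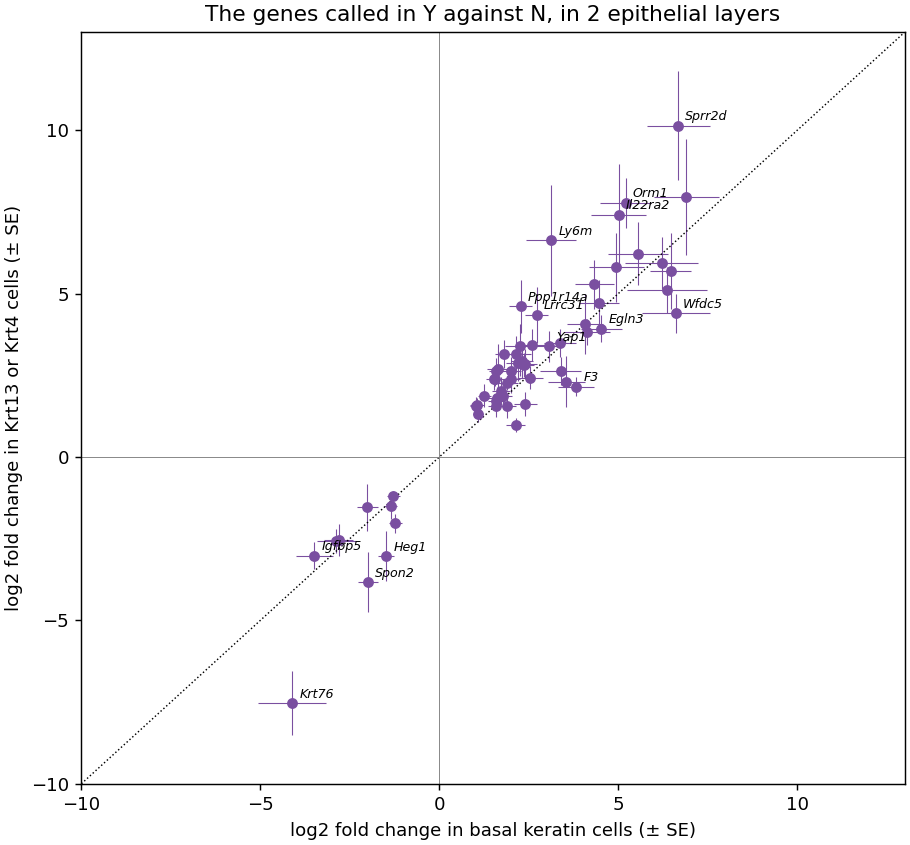
Log2 fold change ± SE of the 62 called genes in basal keratin cells (x axis) and in cells with Krt13 or Krt4 (y axis), with the dotted line marking equal values. All genes lie in the lower left or upper right quadrant, Krt76 at -4.11 and -7.54 and Sprr2d at 6.67 and 10.14.

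Some Y cells had no Yap1 UMI, which does not show that they lacked the transcript. Cells with at least 2 Yap1 UMIs were compared with cells with none inside each library, with the library as a block. Cells with a single Yap1 UMI were left out, so the classes do not cover all kept cells of a library. Y1 and Y2 gave 935 and 789 positive and 202 and 123 zero cells, and N1 and N2 344 and 83 positive and 2134 and 185 zero cells. Positive cells were deeper, at medians of 19324 against 14424 UMIs in Y1 and 20456 against 17781 in Y2, and at most 4.32% of any class (zero cells of N2) held gland markers. In Y, 164 of 11072 genes (1.48%) were called higher and 253 (2.29%) lower in positive cells. The 417 calls in Y became 681 without Y1 and 173 without Y2. In N 11 were called lower (0.0993%) and none higher. The class effect differed between Y and N for 56 genes, 18 higher and 38 lower in Y. Of the 50 genes called higher in Y against N that could be tested here, 21 were called higher in positive cells of Y and 3 lower. Of the 10 called lower, 4 were called lower and none higher.

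Named genes of the positive cells were these. Wnt7b, a Wnt ligand of stratified epithelia, was at 17.8 and 19.7 CPM in zero cells of Y1 and Y2, close to the 13.4 to 20.3 CPM of all N classes, and at 54.3 and 112 in positive cells (1.98, SE 0.20, adjusted p 0.00185, and 2.11, SE 0.29, adjusted p 0.0231 for the difference from N). Amotl2 was at 24.2 and 28.2 CPM in zero cells and 56.1 and 145 in positive cells of Y, and at 4.57 to 11.1 in all N classes (1.73, SE 0.23, adjusted p 0.00693). Gsta3, a glutathione transferase, was at 21.5 and 6.58 CPM in zero cells and 54.6 and 117 in positive cells (2.32, SE 0.44), and the collagen Col12a1 at 8.4 and 5.17 against 25 and 42.2 (2.12, SE 0.33). In all 4 genes both positive sums of Y lay above both zero sums, which the rule for naming them required. Psca, a surface antigen also on the gland list, went from 4.37 to 47.2 CPM in Y1 but from 2.82 to 4.84 in Y2 (2.85, SE 0.37), and among cells of 8000 to 20000 UMIs its difference was -0.12 (adjusted p 0.982). Among the falls Igfbp5 was graded. It was at 128 and 88.7 CPM in zero cells and 135 and 113 in positive cells of N, at 21.5 and 29.1 in zero cells of Y and at 5.17 and 7.22 in positive cells of Y (-2.10, SE 0.15, adjusted p 0.000437). Has3 followed the same order, at 7.06 and 8.46 CPM in zero and 1.29 and 0.817 in positive cells of Y (-2.89, SE 0.35, adjusted p 0.00534), and so did Jakmip2, at 20.2 and 31.5 against 5.5 and 2.95 (-2.62, SE 0.31, adjusted p 0.00504).

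**Figure D5:**
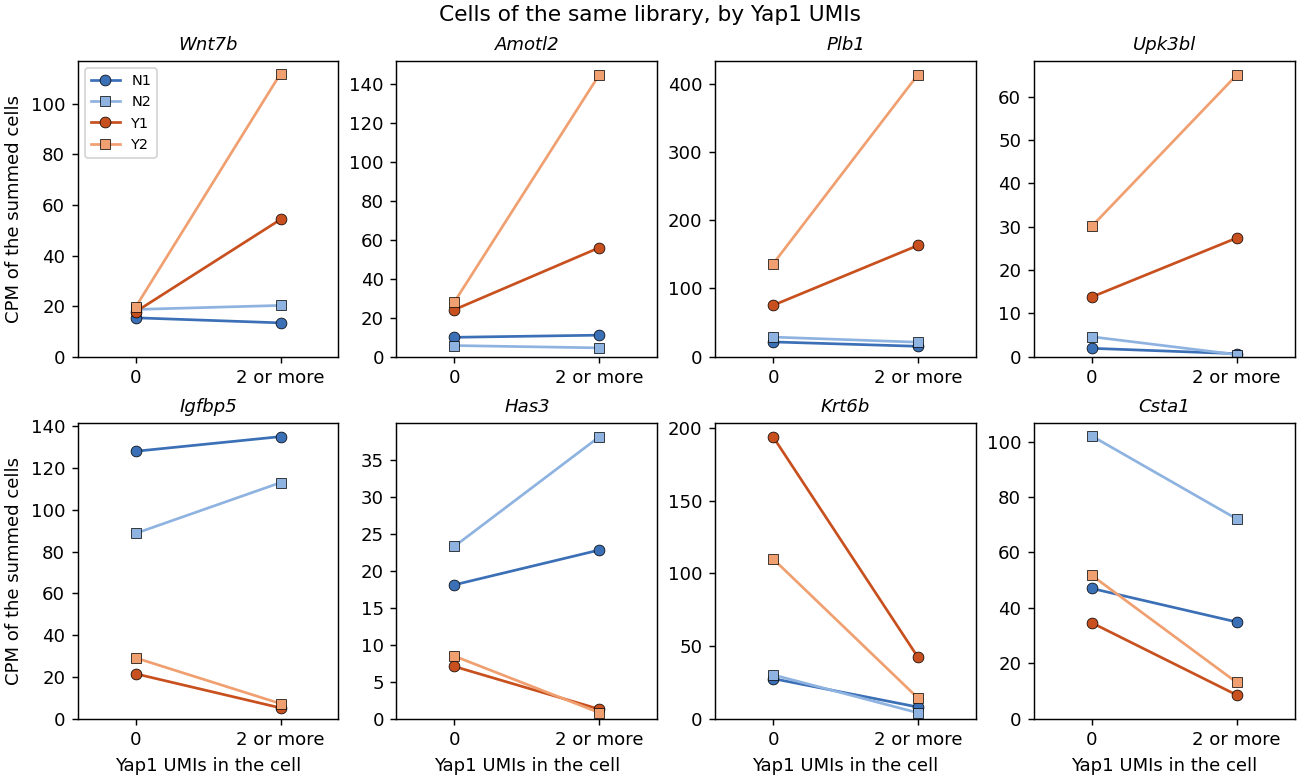
CPM of 8 genes in the summed cells with 0 and with at least 2 Yap1 UMIs of each library, joined by a line, with N in blue and Y in orange and each y axis starting at 0. Wnt7b of zero cells in Y lies at 17.8 and 19.7 CPM next to the N cells, while Igfbp5 of zero cells in Y lies at 21.5 and 29.1 CPM, below all N values.

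Many cornified envelope genes were lower in the Yap1-positive cells inside the Y libraries. Of 35 measured members 14 were called lower and none higher, with a median of -1.04, against a background of 2.29% called lower. At an unadjusted p under 0.05, 23 were lower (background 9.64%) and none was higher (background 7.81%). In N 10 of 35 were lower at that level (background 2.01%) and 2 were called lower, with a median of -0.42. Crct1 was at 334 and 2277 CPM in zero cells of Y1 and Y2 and 246 and 880 in positive cells, while all N classes were at 0.356 to 1.73. The higher Crct1 value given above for all kept N2 cells includes cells with a single Yap1 UMI, which are in neither class. Klk12 was at 24.5 and 86.5 CPM in zero cells and 14.5 and 44.8 in positive cells of Y, and at 0.508 to 0.576 in N. In both genes, zero cells of Y stood far above N and above the positive cells. Krt6b, a keratin of activated epithelium, stepped down in both groups, though short of the threshold in N, from 194 and 110 to 42.3 and 14.2 CPM in Y (-2.59, SE 0.19, adjusted p 0.000539) and from 27.6 and 30.2 to 8.02 and 4.06 in N (-2.10, SE 0.29, adjusted p 0.0565). Lce3c, of the late envelope, was at 102 and 47 CPM in zero and 8.35 and 13.6 in positive cells of Y (-2.83, SE 0.37). Chil4, a chitinase-like protein, was at 169 and 558 against 1.45 and 124 CPM (-3.71, SE 0.73), and Wfdc18, on the gland list, fell in both groups (-5.88 in Y and -4.35 in N).

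The envelope counts were repeated within a layer and within a range of depth. Cells with Krt13 or Krt4 were 24.8 and 22% of zero cells and 25.7 and 30.9% of positive cells in Y1 and Y2. In basal keratin cells only, an alternative added after the data were seen, 9 of 25 measured envelope genes were called lower in positive cells of Y and none higher, with a background of 1.17% called lower. Among cells of 8000 to 20000 UMIs, in which N2 had too few cells to enter, 12 of 33 were called lower, where 2.63% of genes were, and none higher, but the called falls of Klk12, Sprr3 and Sprr2d in positive cells were lost (log2 differences of -0.56, 0.40 and 0.27, adjusted p from 0.586 to 0.935), and the last 2 changed sign. Mitotic genes had positive medians. Of 22 G2/M genes 17 were higher in positive cells of Y at an unadjusted p under 0.05 and 3 were called, and 14 of 22 were higher in N at that level, where the background was 1.89%. At 8000 to 20000 UMIs 14 of 22 were called higher in Y, where 2.12% of genes were. Positive cells were deeper within each group, and whether more RNA per cell has a part in the mitotic counts was not tested.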

How the data were processed

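The measurements were droplet single-cell RNA libraries of sorted tongue epithelial cells, 2 per group in groups N, E, Y and EY. The authors aligned the reads and counted UMIs per gene and cell with Cell Ranger 5.0.0, and the deposited values were raw counts. Epithelial cells were selected by the rule given above, and their UMIs were summed per library. Sums were tested with edgeR 4.0.16 (R 4.3.3), using its filter on low counts, TMM scaling and the quasi-likelihood test, in 1 model of all 8 libraries with Benjamini-Hochberg adjustment over all genes. The Yap1 classes were fitted with the library as a block. DESeq2 1.42.0, RLE scaling, no filter on low counts, other cell limits, single layers and leaving out each library were the alternatives. Scripts were tested on simulated data with known changes. For Y against N, 12 of 100 changes of 1 on the log2 scale and 55 of 100 changes of 2 were recovered, with 13 false calls. For the Yap1 classes of Y these were 71 and 91 of 100, with 20 false calls. A gene that was not called may therefore still differ. In both simulations the false calls made up a larger share of all calls than the 0.05 that the threshold aims for. Some called genes may therefore be false. Scrublet marked 0.028 to 2.05% of the cells per library. It marked only 0.028% in E1 and 0.0736% in EY1, and whether it worked in these libraries was not tested. Its calls were left out only as an alternative.

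The genes named were the 10 largest rises and falls among called genes of at least 20 CPM in either group that did not overlap and were at most 5 times higher in leukocytes, filled at an unadjusted p under 0.01, plus called members and up to 4 most abundant others of 24 gene lists, and the 5 largest rises and falls of the Yap1 classes. Other called genes, Ccn2 and Ankrd1 were chosen after their values were seen. The comparison, the lists and the rules were chosen with earlier results of these data known. Positions are of GRCm38, matched by gene identifier for 32235 of 32285 features. Nothing in the labels says whether libraries of a group came from separate inductions, so p-values measure the spread between these libraries.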

Additional observations from a re-analysis of the deposited data

Results flagged for a closer look

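The difference between Yap1-positive and Yap1-zero cells was not the same in Y as in N for 56 genes by the test of that difference itself (edgeR quasi-likelihood, adjusted p under 0.05). Among the genes named in the report, the class difference in Y minus that in N was 4.38 on the log2 scale for Psca, 2.99 for Upk3bl, 2.11 for Wnt7b, 1.82 for Plb1, 1.62 for Wwc2 and 1.21 for Tinagl1. It was -3.33 for Has3, -3.06 for Egfl6, -2.96 for Jakmip2, -2.25 for Igfbp5, -1.56 for Csta1 and -0.73 for Klk10. In N the Psca sums were 6.91 and 540 CPM in zero cells of N1 and N2 and 2.5 and 190 in positive cells, and gland or duct cells were 4.32% of zero cells of N2. The part of gland cells in the Psca value was not tested. For Plb1 both zero sums of Y, at 75.3 and 136 CPM, and both positive sums, at 163 and 413, lay above all N sums, which were 15.3 to 28.8.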

How the results depend on the processing

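With 2 libraries per group, the calls rest on single libraries, those of E and EY included through the shared spread. Leaving out E and EY libraries was chosen after seeing the data. The 62 genes called in Y against N became 0 in the 4 libraries alone (edgeR, 1889 at an unadjusted p under 0.05), 457 with DESeq2, 1208 with no filter on low counts, 198 with keratins of at least 2%, 1504 without upper limits on genes and UMIs and, as an alternative chosen after seeing the data, 183 in Krt13 or Krt4 cells. Dropping any 1 library left 0 (for N1, N2, E1 or E2, with 1099, 1190, 1482 and 1504 at an unadjusted p under 0.05) to 98 (Y1), with 1 without Y2 and 15 without EY1. The 55 genes called the same way in EY against E became 330 with DESeq2, 810 with no filter, 156 with keratins of at least 2%, 1229 without upper limits and 0 to 81 with 1 library left out. The 43 calls in basal keratin cells, with alternatives chosen after seeing the data, became 0 with RLE scaling (1404 at an unadjusted p under 0.05), 987 with no filter and 0 to 89 with 1 library left out. The 417 genes called between Yap1 classes of Y became 191 in basal keratin cells, also chosen after seeing the data, and 173 to 681 with 1 library left out. In cells of 8000 to 20000 UMIs the class differences of Psca, Sprr3 and Sprr2d became -0.12, 0.40 and 0.27. The cause of these changes was not tested. Across named genes and alternatives, 1183 values kept their direction and side of the threshold, 345 dropped below it, 115 passed it and 3 reversed. No paired analysis was possible because the labels give no replicate number that groups share.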
